A study of Homo sapiens with 18 samples.

Results

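Chromatin accessibility in SCC6 cells was compared between cetuximab and PBS after 5 days, with promoter regions and distal regions described apart. SCC6 is a cell line of head and neck squamous cell carcinoma (HNSCC), and cetuximab is an antibody that blocks the epidermal growth factor receptor, EGFR. The comparison used all columns of the line in the deposited table of regions, namely 3 libraries of cells given cetuximab (100 nM, daily) and 3 libraries of cells given PBS as the untreated control, of 17 libraries with values in the series. Both groups carried the same genetic background, were grown in DMEM and Ham's F12 with serum, and were seeded 1 day before the first dose, and the line is 1 established culture. The 25% of regions with the lowest mean over these 6 libraries were left out, which kept 86315 of 115087 regions, of which 14093 were promoter regions and 72222 distal. A region was called a promoter region when it lay within 1 kb of a start site of a protein-coding transcript. The other libraries of the series came from the HNSCC lines SCC1 and SCC25 and served here only to ask whether SCC6 responded differently.

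ATAC-seq reads open chromatin: the Tn5 transposase inserts sequencing adapters where DNA is not packed around nucleosomes, at active promoters and at distal enhancers. EGFR signals through RAS and ERK to transcription factors of the AP-1 family (dimers of FOS and JUN proteins), which bind enhancers of keratinocytes and squamous tumours. TEAD factors, which act with the co-activators YAP and TAZ, share many of those enhancers, and SMAD proteins carry the signal of TGF-beta receptors to DNA.

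Values below are signal, which is the number of reads in a region multiplied by 1 scaling step per library, as the authors deposited it. A log2 change is the difference of the mean log2(signal + 1) between cetuximab and PBS libraries, so it understates changes of low regions. Adjusted p-values are from limma over all 86315 regions, two-sided with Benjamini-Hochberg adjustment, and a region was called when its adjusted p was under 0.05. The libraries held 5271491, 5620846 and 15017130 reads in regions with cetuximab and 4098164, 7260488 and 4603858 with PBS. Cetuximab replicate 3 was thus the deepest, and it lay nearest to the PBS libraries on the first principal component, which separated the treatments and held 63.1% of the variance. Log2 values of replicates correlated with Pearson's r of 0.904 to 0.933 across regions, and those of a cetuximab and a PBS library with 0.744 to 0.812. Nothing in the labels says that replicates were separate cultures, so the p-values measure the spread between these libraries, which may be technical. The line was checked against promoters of marker genes of squamous epithelium, whose summed signal was 511 to 584 with cetuximab and 557 to 581 with PBS. Of these 10 promoter regions 4 had a peak in all 6 libraries and 2 had none. Markers of fibroblasts had a region at 4 of 10 genes, with a summed signal of 142 to 183 with cetuximab and 132 to 139 with PBS, and those of immune cells at 3 of 10, with 51.5 to 54.8 and 28.3 to 42.8. Endothelial markers had a region at 2 of 9 genes, with 74.3 to 90.9 and 84.6 to 103. Their part in the results was not tested.

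Accessibility changed at a large share of the SCC6 regions, in opposite balance at promoters and at distal regions. Over all regions 14622 were higher with cetuximab (16.9%) and 9152 lower (10.6%). At promoters 531 regions were higher (3.77%) and 1531 lower (10.9%), with a median log2 change of -0.11 over all promoter regions. Among distal regions 14091 were higher (19.5%) and 7621 lower (10.6%), with a median of 0.22. The median over all regions was 0.11, so a change is best read relative to that shift.

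**Figure D1:**
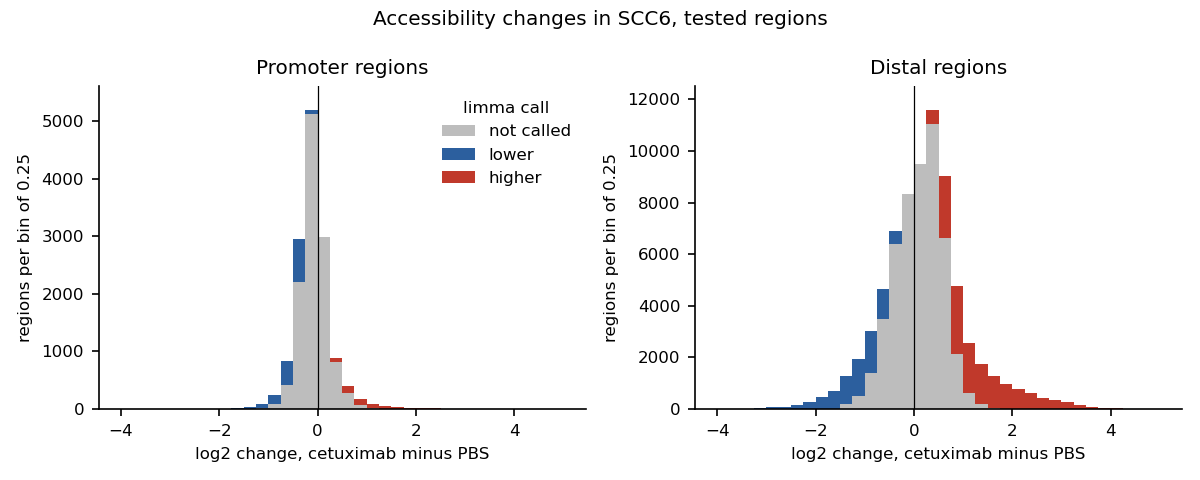
Number of tested SCC6 regions per bin of 0.25 in log2 change (cetuximab minus PBS), promoter regions on the left and distal regions on the right, coloured by the limma call. Promoter changes form a narrow peak just below 0, with 1531 regions called lower, while distal changes spread widely and have a long upper tail of the 14091 regions called higher.

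Promoter changes were also smaller than distal ones. Regions called lower had a median log2 change of -0.49 at promoters and -1.08 at distal sites, and only 140 promoter regions fell by at least 2-fold. By contrast, 8526 distal regions rose at least 2-fold and 2839 at least 4-fold, and 4301 fell at least 2-fold. The peak calls of the authors gave the same picture: 3161 of the distal regions called higher (22.4%) had a peak in all 3 cetuximab libraries and in none of the PBS libraries, which held for 5.72% of all distal regions. Among distal regions called lower, 312 (4.09%) had a peak in all 3 PBS libraries and none of the cetuximab libraries, against 0.46% of all distal regions. Promoter regions called lower mostly stayed open, since 72.6% of them had a peak in all 6 libraries. More peaks were called in the deepest library (101272, against 47441 to 66383 in the other 5), and the part of depth in these peak counts was not tested.

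The balance turned at the start site itself. Of 11221 promoter regions that covered a start site, 2.10% were higher and 11.5% lower, whereas of 2872 regions beside a start site but within 1 kb, 10.3% were higher and 8.22% lower. Farther out the higher share rose from 16.8% at 1 to 5 kb to 20.8% beyond 500 kb, and the lower share was 11.4% at 1 to 5 kb and 6.56% beyond 500 kb. Introns (39021 regions) and the space between genes (25944 regions) were nearly alike, with 20.1% and 19.4% higher and 10.4% and 10.7% lower.

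**Figure D2:**
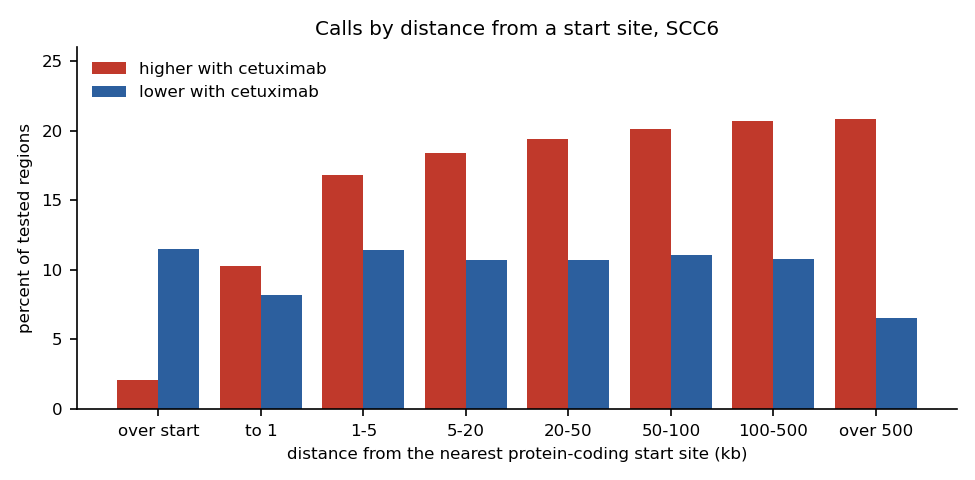
Percent of tested SCC6 regions called higher (red) or lower (blue) with cetuximab, by distance of the region from the nearest protein-coding start site in kb. Only regions over a start site had far more lower calls (11.5%) than higher calls (2.10%), and from 1 kb outwards the higher calls prevailed.

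Base composition and scaling moved with the split at promoters, and this bears on every promoter count below. Promoter regions had a median GC content of 65.4% and distal regions 44%. Among the 3524 promoters with the least GC, 365 regions were higher and 333 lower, and among the 3522 with the most GC 23 were higher and 414 lower. With the trend of log2 change on GC content removed, 1747 promoter regions were higher and 315 lower, and with libraries scaled by their reads in the 22792 regions that had no peak 1875 were higher and 344 lower. The excess of lower over higher promoters is therefore relative to the deposited scaling, and it turned under both of these alternatives. The median log2 change of distal regions stayed above 0 under each alternative (0.046 to 0.44), but the excess of gains over losses there did not. With median centring 10063 distal regions were higher and 11709 lower, and with quantile normalization 10915 were higher and 10981 lower.

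In reads, promoter regions took 30.9%, 32.2% and 33.8% of the reads in the cetuximab libraries and 36.5%, 36.4% and 36.5% in the PBS libraries. All 3 cetuximab libraries lay below all PBS libraries, and the deepest cetuximab library lay nearest to them (32.3% ± 1.47 against 36.5% ± 0.0661, SD, n = 3 each, two-sided exact permutation p = 0.1, the smallest that 3 against 3 can give). The same share differed in the other direction in SCC1 (41.3% to 44.9% with cetuximab, 37.3% to 37.5% with PBS) and in SCC25 (35.8% to 36.1%, against 34.1% to 34.3%). The difference between lines in this share was not tested.

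Whether SCC6 responded differently from the other lines was tested region by region, with the SCC6 effect set against the mean of the SCC1 and SCC25 effects. The SCC6 response lay above that of the other lines in 6896 regions (7.99%) and below it in 2961 (3.43%). Of the distal regions called higher in SCC6, 5698 (40.4%) had a response further up than the other lines. Of those called lower, 1394 (18.3%) had a response further down. The SCC6 libraries enter both tests, so these shares are descriptions. The other lines, whose libraries the SCC6 calls did not use, showed the loss of distal accessibility in part and the gain much less. Regions called lower had a median log2 change of -1.08 in SCC6, -0.51 in SCC1 and -0.23 in SCC25, and regions called higher had 1.19, 0.22 and 0.14. At promoters called lower the medians were -0.49, 0.12 and 0.0013. The regions were kept by SCC6 signal and chosen for their SCC6 change, so smaller medians in the other lines are partly fixed by that choice. In libraries of SCC1 and SCC25, 12.6% to 28.8% of all regions stood at the lowest value. The part of this in the medians was not tested.

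Sequence motifs were counted at distal regions, since the letters at the centre of a region were not used to call it. Short motifs of 37 factors or families were searched on both strands in a window of 200 bases around the centre of each region, and a match describes letters, not binding. The motifs TGANTCA (the AP-1 site), GGAATG (the TEAD site) and GTCTAGAC (the palindrome that SMAD proteins bind) are shown because the calls differed plainly with them. They were singled out after the values of all motifs were seen. The windows below are from the genome build hg19, forward strand, 5′ to 3′, with every AP-1, TEAD and SMAD match in capitals. The first pair had the smallest adjusted p among distal regions called lower with 3 or more AP-1 matches (near CDYL, chr6:4487902-4488101, and ZBBX, chr3:166381084-166381283). The second pair was the same for regions called higher with 3 or more TEAD matches (COL11A1, chr1:103407031-103407230, and AVPR1A, chr12:63439108-63439307). Regions labelled CDYL, ZBBX and AVPR1A lay 218, 709 and 105 kb from those start sites, so these names give position only. The last pair is from the 4 regions of smallest adjusted p among those called higher with the SMAD letters (ADAMTS16 intron, chr5:5316489-5316688, and TP63, chr3:189290205-189290404).
CDYL, lower: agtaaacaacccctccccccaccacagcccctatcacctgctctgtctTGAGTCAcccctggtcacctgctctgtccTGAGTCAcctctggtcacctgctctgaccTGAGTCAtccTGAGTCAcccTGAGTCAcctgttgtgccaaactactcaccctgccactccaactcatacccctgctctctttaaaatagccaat
ZBBX, lower: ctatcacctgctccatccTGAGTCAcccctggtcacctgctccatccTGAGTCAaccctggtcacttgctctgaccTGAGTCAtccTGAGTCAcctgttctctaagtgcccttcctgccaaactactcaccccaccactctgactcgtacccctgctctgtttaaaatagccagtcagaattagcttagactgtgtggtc
COL11A1, higher: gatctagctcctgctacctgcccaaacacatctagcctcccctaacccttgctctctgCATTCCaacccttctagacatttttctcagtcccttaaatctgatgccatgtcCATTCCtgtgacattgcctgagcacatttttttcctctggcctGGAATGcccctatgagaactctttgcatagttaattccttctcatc
AVPR1A, higher: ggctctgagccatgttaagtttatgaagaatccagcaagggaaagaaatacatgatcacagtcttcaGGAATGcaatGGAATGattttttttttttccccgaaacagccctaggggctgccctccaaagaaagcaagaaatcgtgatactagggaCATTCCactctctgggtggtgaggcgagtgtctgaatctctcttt
ADAMTS16, higher: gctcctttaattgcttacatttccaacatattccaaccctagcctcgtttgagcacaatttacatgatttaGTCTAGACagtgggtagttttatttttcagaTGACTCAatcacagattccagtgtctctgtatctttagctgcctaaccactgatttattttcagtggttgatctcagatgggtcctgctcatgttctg
TP63, higher: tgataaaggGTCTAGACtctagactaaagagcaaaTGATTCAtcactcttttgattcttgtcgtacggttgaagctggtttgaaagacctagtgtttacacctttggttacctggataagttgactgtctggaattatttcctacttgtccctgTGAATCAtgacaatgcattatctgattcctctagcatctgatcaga

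The signal in these windows' regions separated the groups fully. The region near CDYL had 13.1, 13.0 and 16.9 with cetuximab and 68.9, 64.9 and 95.7 with PBS. The COL11A1 region, inside an intron of this fibrillar collagen gene, had 319, 341 and 321 with cetuximab against 82.2, 115 and 114. In the intron of ADAMTS16, a secreted metalloprotease gene, the region was nearly closed with PBS, at 1.21, 4.68 and 5.44, and had 121, 110 and 126 with cetuximab. The region 58.6 kb from a start site of TP63, the master factor of squamous cells, had 161, 162 and 186 with cetuximab against 41.1, 42.2 and 38.1. These regions were chosen for their small adjusted p, so the values describe them and test nothing.

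Distal regions with AP-1 letters lost accessibility more often, and the more so the more matches they held. The letters TGANTCA occurred in 30.4% of all tested distal regions, in 51.2% of those called lower and in 22.8% of those called higher. Regions with 0, 1, 2 and 3 or more matches were lower in 7.41%, 16.5%, 23.7% and 32.7% of cases, and their median log2 changes were 0.32, -0.024, -0.23 and -0.31. In libraries that took no part in the calls, regions with matches also had lower medians than those without, with 0.12, -0.28, -0.47 and -0.46 in SCC1 and 0.11, -0.14, -0.23 and -0.25 in SCC25. With distal regions split into 4 classes of GC content, the letters were more frequent among lower than among higher regions in each (63.4% against 16% in the class with the least GC, 40.4% against 23.1% in that with the most). Over all alternatives of the fit the share among lower regions was 48.2% to 54.1%.

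Counted in reads, regions with AP-1 letters took 27.9%, 28.8% and 30.0% of distal reads in the cetuximab libraries and 32.4%, 33.0% and 32.9% in the PBS libraries (28.9% ± 1.04 against 32.7% ± 0.301, SD, n = 3 each, exact permutation p = 0.1, the smallest possible). The groups did not overlap, and the deepest cetuximab library again lay nearest to PBS. SCC1 differed in the same direction (34.1% to 34.8% against 38.4% to 38.8%), as did SCC25 (37.9% to 38.1% against 40.1% to 40.2%).

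A subset of the AP-1 regions held matches in tandem. The windows near CDYL and ZBBX shared 15 of their 181 runs of 20 bases, and both held a pair of AP-1 matches whose first bases lay 10 bases apart. This spacing was taken from these 2 windows, which were chosen for their small adjusted p and are counted below, so the counts are a description. Among distal regions with 3 or more matches, 20 held such a pair, and 17 of these were lower and none higher, with a median log2 change of -1.38. Medians of the 20 were -0.62 in SCC1 and -0.23 in SCC25, against -0.45 and -0.25 for regions with 3 or more matches and no such pair. The other 286 were lower in 29.0% of cases, so the order by number of matches did not rest on the tandem pairs. Windows with shared runs may belong to repeats of the genome, where reads are harder to place, and the part of this was not tested.

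TEAD letters marked the opposite direction. GGAATG occurred in 19.7% of distal regions, in 28.4% of those called higher and in 17.4% of those called lower. This contrast was small in the class with the least GC content. There the letters were in 17.4% of higher and 15.7% of lower regions, with median log2 changes of 0.48 with them and 0.46 without. In the class with the most GC they were in 30.6% and 15.5%. The higher share rose from 17.4% of regions without a match to 26.7% with 1, 37.4% with 2 and 41.3% with 3 or more, while the lower share went from 10.9% to 8.14%. In SCC1 and SCC25 the medians stayed between -0.042 and 0.13 for every number of matches. Regions with TEAD but no AP-1 letters were higher in 32.6% and lower in 6.87% of cases (median 0.40), regions with AP-1 but no TEAD letters in 13.8% and 18.5% (median -0.086), and regions with both in 18.1% and 14.8% (median 0.028). The share of distal reads in regions with TEAD letters was 20.8%, 21.3% and 22.3% with cetuximab and 19.9%, 20.2% and 20.3% with PBS, without overlap. The share was also higher with cetuximab, without overlap, in SCC1 (21.9% to 22.1% against 21.1% to 21.3%) and in SCC25 (20.5% to 20.6% against 20% to 20.1%). Over all alternatives 23.4% to 33.0% of the regions called higher held TEAD letters, and the lowest share was the fit without cetuximab replicate 3.

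Among the 37 motifs, the SMAD palindrome had the highest share of regions called higher. The letters GTCTAGAC occurred in 196 distal regions on 23 chromosomes, of which 129 (65.8%) were higher and 4 lower, with a median log2 change of 1.22. The background over all distal regions was 19.5% higher with a median of 0.22. Regions with 7 of the 8 letters (GTCTAGA) were higher in 28.5% of 917 cases, those with 6 (GTCTAG) in 26.6% of 2776, and the remaining 68333 in 19%, so the share rose sharply only with the whole palindrome. The gain was found in each of the 4 classes of GC content, with medians of 1.06, 1.46, 1.18 and 1.03 from the least to the most GC. Under the alternatives for which this count was run (not those with another filter, nor thinned reads) 106 to 147 of the 196 were higher. Of 174 windows that shared no run of 20 bases with another, 117 were higher.

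The gain at SMAD letters was larger in SCC6 than in the other lines. In the test of SCC6 against SCC1 and SCC25, 88 of the 196 regions passed above and none below (background 9.21% of distal regions above), and the median log2 change was 0.16 in SCC1 and 0.048 in SCC25. The 196 regions took 0.286%, 0.297% and 0.317% of distal reads with cetuximab and 0.173%, 0.176% and 0.185% with PBS (0.3% ± 0.0157 against 0.178% ± 0.00624, SD, n = 3 each, exact permutation p = 0.1, the smallest possible). This share was also higher with cetuximab, without overlap, in SCC1 (0.252% in all 3 libraries against 0.224% and 0.231%) and in SCC25 (0.256% to 0.261% against 0.245% to 0.248%). PBS libraries of SCC6 lay below those of both lines and cetuximab libraries of SCC6 above them, and the difference between lines in this share was not tested.

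**Figure D3:**
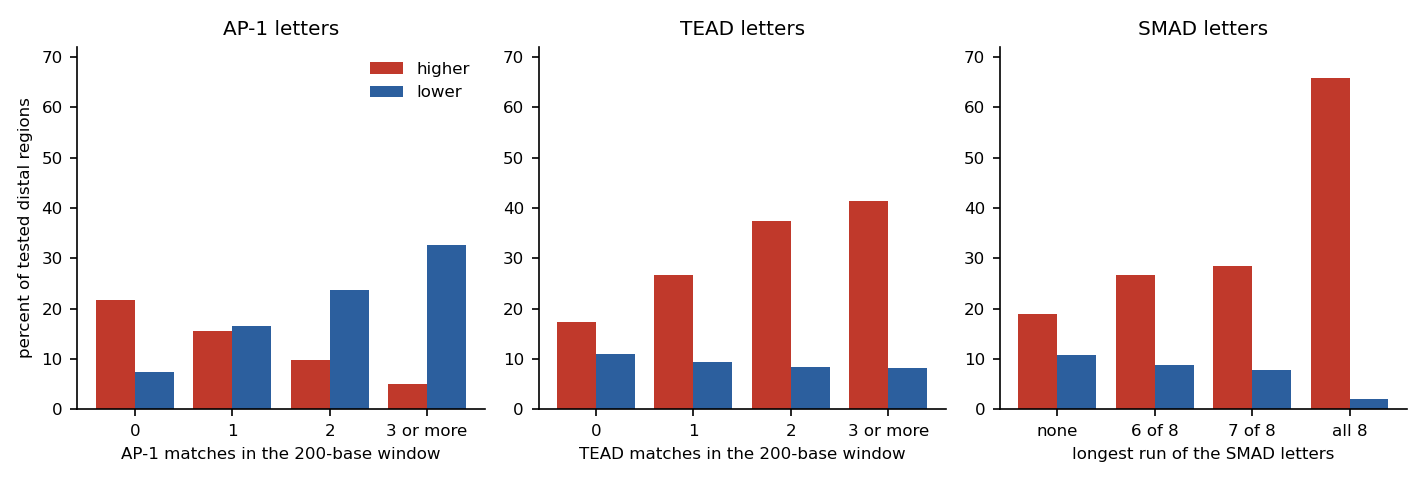
Percent of tested distal SCC6 regions called higher (red) or lower (blue) by the number of AP-1 or TEAD matches in the 200-base window and by the longest run of the SMAD letters. Lower calls rise with AP-1 matches to 32.7%, higher calls rise with TEAD matches to 41.3%, and regions with all 8 SMAD letters were higher in 65.8% of cases.

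Other motifs differed too. GATA letters (AGATAA) occurred in 14.7% of distal regions and in 19.4% of those called higher, and RUNX letters (TGTGGTT) in 7.66% and 10.7%. CTCF, the factor that holds chromatin loops, had matches in 6% of distal regions but in 1.89% of those called higher and 5.69% of those called lower. The letters of the KLF family, regulators of epithelial differentiation (GGGTGTGG), occurred in 2.22% of distal regions, 1.19% of those called higher and 5.33% of those called lower. Of the 1602 regions with KLF letters 25.3% were lower, against 10.6% of all distal regions, and their median log2 change was -0.24. In each of the 4 classes of GC content the letters were more frequent among lower than among higher regions (0.775% against 0.331% with the least GC, 8.62% against 2.26% with the most). TFAP2 letters (GCCNNNGGC), for the factor TFAP2A that the study followed, gave a smaller contrast than AP-1 or TEAD letters. They were in 6.5% of all distal regions, 5.76% of those called higher and 8.06% of those called lower. In the class with the most GC content the shares of higher and lower regions were 15.5% and 15.1%, and with the least GC 0.938% and 1.36%. At promoters, AP-1 letters were present in 7.27% of regions, 16.8% of those called higher and 9.08% of those called lower. TEAD letters were in 8.45%, 21.5% and 6.92%. Of promoters with AP-1 letters 8.68% were higher and 13.6% lower, against 3.77% and 10.9% of all promoters. Promoters called higher had a median GC content of 52.1%, against 65.4% of all promoters and 54.3% of those with AP-1 letters. The part of GC content in these shares was not tested.

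**Figure D4:**
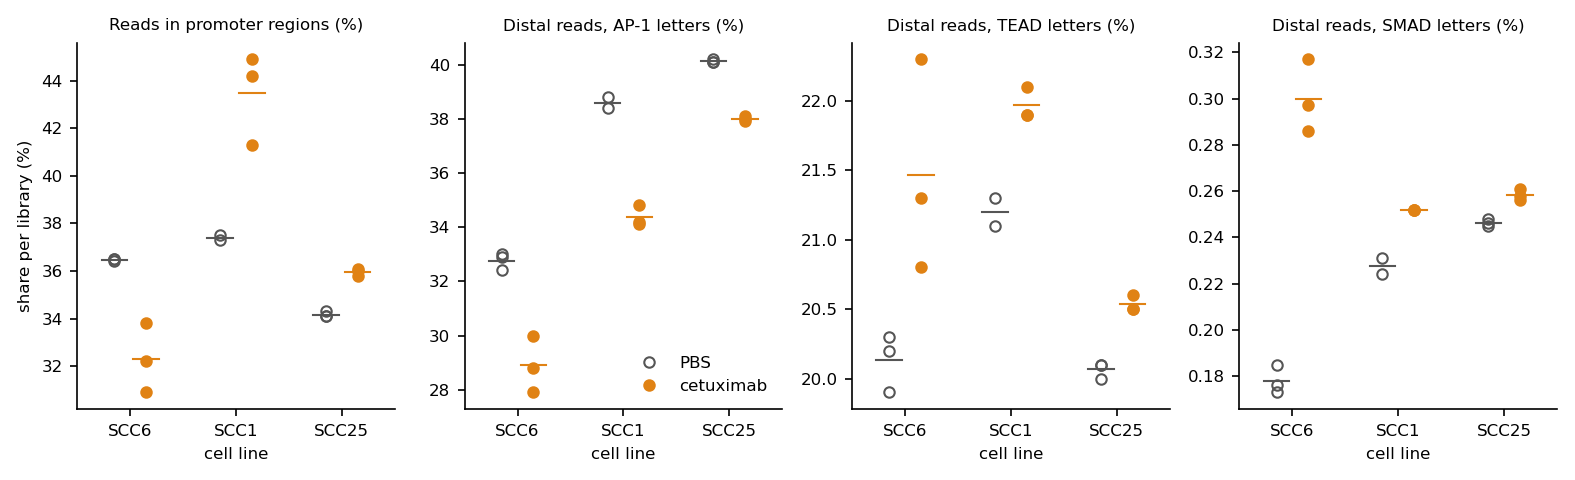
Share of reads in promoter regions and share of distal reads in regions with AP-1, TEAD or SMAD letters, in percent (axes do not start at 0), for each library of each line, with PBS as open and cetuximab as filled points and bars at group means. In SCC6 the promoter and AP-1 shares lay lower without overlap and the TEAD and SMAD shares lay higher, with SMAD at 0.286% to 0.317% against 0.173% to 0.185%, while the promoter share differed in the other direction in SCC1 and SCC25.

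Among single distal regions the smallest adjusted p-values included several gains around the MMP and YAP1 genes on chromosome 11. A gain on chromosome 8, 182 kb from LRATD2, was also among them (adjusted p = 1.0e-24). Signal in the chromosome 11 block was high, as given below, and more reads give smaller p-values for the same change. A region in an intron of TRPC6, a calcium channel gene, had 1700, 1650 and 1560 with cetuximab and 384, 337 and 347 with PBS (log2 change 2.20, SE 0.0646, adjusted p = 6.4e-31). The region nearest to MMP27, a matrix metalloprotease gene, had 462, 437 and 459 against 73.7, 73.6 and 48.9 (log2 change 2.80, SE 0.135). In both the lowest cetuximab library exceeded the highest PBS library several times over, and SCC6 differed from the other lines (log2 differences of 2.3 and 2.35, adjusted p = 2.0e-10 and 6.2e-05). A region 2.90 kb beyond the nearest start site of ARHGAP42, which encodes a RHOA-inactivating protein, had 786, 728 and 661 against 76.1, 91.0 and 116. The region 212 kb from the progesterone receptor gene PGR had 812, 729 and 664 against 141, 135 and 169.

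Outside chromosome 11, a region over an exon of DNAH5, an axonemal dynein gene, rose from 48.3, 36.8 and 26.1 to 360, 369 and 372 and held a TEAD match, with a log2 change of 3.31 (SE 0.167). Its change was 0.48 in SCC1 and 0.032 in SCC25, and the difference from them was 3.06 (adjusted p = 1.1e-07).

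Losses ranged from near closure to partial loss at a highly open region. The region 29.1 kb from CEP126, a centrosomal protein gene, had 594, 512 and 502 with cetuximab and 1070, 962 and 1130 with PBS (log2 change -0.98, SE 0.0687), and kept a peak in all 6 libraries. The region 144 kb from TMEM106B, a lysosomal membrane protein gene, had 85.9, 87.3 and 99.2 with cetuximab and 394, 400 and 413 with PBS (log2 change -2.14, SE 0.118, adjusted p = 1.6e-19). In an intron of GNA14, a G protein subunit gene, signal was 32.3, 27.9 and 23.5 against 196, 185 and 188, and this window held an AP-1 match. The region 13.9 kb from SCEL, which encodes the cornified envelope protein sciellin, had 20.2, 15.8 and 23.8 against 147, 157 and 152 (log2 change -2.89, SE 0.223) and also held an AP-1 match. Both also had lower values in SCC1 (log2 changes of -1.94 and -1.18, adjusted p = 0.000285 and 0.00677 in the joint fit).

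Further losses included regions with TEAD letters. An intron region of DOCK10, a guanine nucleotide exchange factor of CDC42, fell from 174, 151 and 179 to 27.3, 23.2 and 27.1, although it held 2 TEAD matches and no AP-1 match. An intron region of HIVEP3, 30.4 kb from the endothelin gene EDN2, fell from 413, 444 and 519 to 180, 177 and 184. In SCC1 and SCC25 this region had log2 changes of 0.48 and 1.01, neither called, and the difference of SCC6 from them was -2.08 (adjusted p = 7.5e-05).

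Promoter gains included regions that were almost closed without drug. The region at ZNF23, a zinc finger gene, had 65.7, 60.3 and 83.3 with cetuximab and 6.04, 3.35 and 1.09 with PBS, where the lowest value stands for no more than 1 read (log2 change 4.13, SE 0.397, adjusted p = 1.6e-11). A region 0.699 kb from a start site of TP73, the p53 family member that shares partners with p63, had 61.6, 61.3 and 52.6 against 6.04, 8.70 and 7.61 (log2 change 2.82, SE 0.322, adjusted p = 1.7e-09). At HHAT, the enzyme that adds palmitate to hedgehog proteins, signal was 340, 319 and 339 against 110, 90.3 and 114 (log2 change 1.66, SE 0.122, adjusted p = 3.8e-15). All 3 had a larger change in SCC6 than the mean of the other lines, by 3.29, 3.04 and 1.82 on the log2 scale. ZNF23 was also higher in SCC1 (log2 change 2.26, adjusted p = 0.0119 in the joint fit), but not called in SCC25 (-0.58, adjusted p = 0.691). A region in HIVEP3, at a start site of ENSG00000284895, rose by 1.48, without a called difference from the other lines (adjusted p = 0.913). STON1, an endocytosis adaptor gene, NPLOC4, a cofactor of the VCP segregase, and NEK6, a mitotic kinase gene, had log2 changes of 1.11 to 2.03. A second region of ARHGAP42, at chr11:100862334-100862749, rose by 1.3, without a called difference from the other lines (adjusted p = 0.253). It lay near the far end of the gene, which spans 100558019 to 100864672 on the forward strand. The promoter region of ARHGAP42 with the highest signal was not called (log2 change -0.097, adjusted p = 0.21).

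Promoter losses were led by MMP1, the interstitial collagenase gene and a classical AP-1 target, with 89.9, 96.6 and 76.4 with cetuximab against 290, 286 and 234 (log2 change -1.61, SE 0.136, adjusted p = 3.3e-13). Its promoter was also lower in SCC1 (log2 change -2.22, adjusted p = 2.8e-05 in the joint fit). BIRC3, an inhibitor of apoptosis that NF-kB induces, had a much higher signal and a smaller change, with 1980, 1970 and 1710 against 2950, 2690 and 2780 (log2 change -0.57, SE 0.0457). NLRP10 closed nearly completely, from 60.4, 71.6 and 59.8 to 5.05, 8.36 and 6.61, and no cetuximab library had a peak there. SIGLEC15, a sialic acid receptor gene, fell by 1.47 on the log2 scale, as did TRIM8, a ubiquitin ligase gene of cytokine signalling. KCNQ3, GPR160 and VILL, a villin-like gene, fell by 1.59, 1.07 and 2.49.

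**Figure D5:**
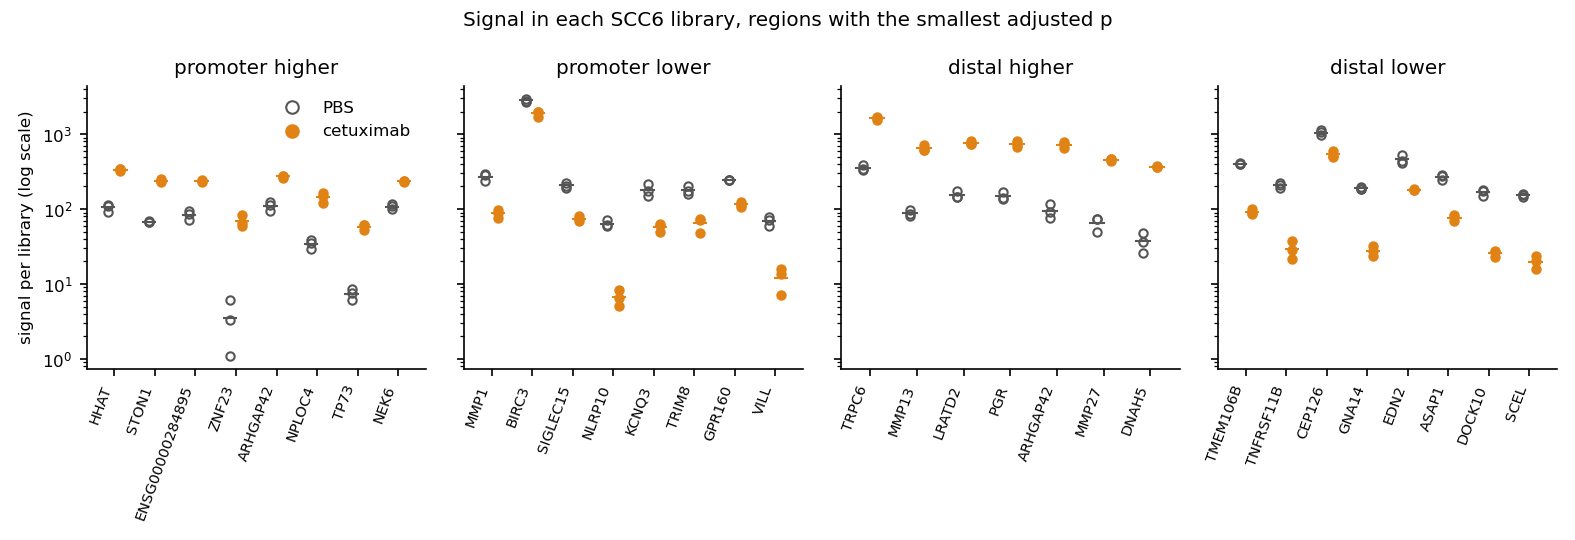
Signal in each SCC6 library (log axis) for the regions named for the lowest adjusted p without overlap of groups, promoter and distal apart, labelled by the nearest gene, with PBS as open and cetuximab as filled points and bars at group means. Replicates lie close together in every region, apart from ZNF23 with PBS (1.09 to 6.04), where few reads were present.

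Gains and losses lay side by side in the same loci. The window of 1 Mb with the most calls in both directions was 102 to 103 Mb of chromosome 11, which holds YAP1, BIRC2, BIRC3 and the MMP cluster: of its 116 tested regions 34 were higher (29.3%) and 50 lower (43.1%). The neighbouring windows at 101 and 100 Mb had 25 higher and 17 lower of 73, and 22 and 24 of 87. Median signal in these 3 windows was 175, 141 and 119, against 33.7 over all regions. A region with more reads passes the test at a smaller change, and the part of this in the counts was not tested. At YAP1, the co-activator of TEAD, 8 of 23 distal regions were higher and 8 lower, and its promoter, with a signal of 4400 to 5030 against 5260 to 5730, had a log2 change of -0.20 (SE 0.0405, adjusted p = 0.0011), which turned to 0.058, 0.019 and 0.029 with the GC trend removed, with cyclic loess and with scaling by regions that had no peak.

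Within this block the genes of 1 family split. Among the 14 distal regions nearest to MMP20, the enamel metalloprotease, 9 were lower (log2 changes of -1.39 to -0.42) and 2 higher, and 6 of those 9 held AP-1 letters. All 3 distal regions of MMP1 were lower, and at MMP7, matrilysin, 4 of 10 were higher and 5 lower. ARHGAP42 had the most lower regions of any gene, 16 of 40, of which 5 held AP-1 letters, and 6 higher.

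The genes with the most distal regions called higher were NAV2, ASAP1, TNS3, TENM2, FRMD4A and OXR1. NAV2, a neuron navigator gene on another part of chromosome 11, had 15 of 41 distal regions higher and 4 lower, with gains of up to 4.31 on the log2 scale. At TNS3, a tensin gene of focal adhesions, 13 of 32 were higher and 3 lower, and its promoter rose as well (log2 change 0.64, adjusted p = 6.2e-05). TENM2, a cell adhesion gene, had 12 of 25 higher, and 8 of these 12 held TEAD letters. FRMD4A, a polarity scaffold gene, had 10 of 26 higher and none lower, while its promoter fell (log2 change -0.85, adjusted p = 0.00102). OXR1, a gene of oxidation resistance, had 10 of 27 higher and 3 lower. ASAP1, an ARF GTPase-activating gene of podosomes, stood among the genes with the most calls in both directions, with 14 higher and 10 lower of 54, and AP-1 letters were in 7 of its 10 lower and 4 of its 14 higher regions. KCNK1, a potassium channel gene, had 8 lower of 12, and ZBTB20, a zinc finger repressor gene, 8 of 29. Genes with more regions have more chances to be named here, and the shares should be read against the 19.5% and 10.6% of all distal regions.

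Gene groups were described by the counts of their promoter regions and of the distal regions within 100 kb whose nearest start site was theirs. For each gene the promoter region of highest mean signal was taken, which can lie at a start site inside the gene. Matrix proteases and their inhibitors had 6 promoters higher and 5 lower of 16 (background 3.77% and 10.9%), and among 117 distal regions 28 were higher and 36 lower (23.9% and 30.8%, against 19.5% and 10.6% of all distal regions). This balance turned with all libraries in 1 fit (20 higher, 11 lower) and with scaling by regions that had no peak (39 and 18). Among those that rose, MMP14, ADAM19, MMP20, ADAMTS1 and MMP10 rose by 0.88, 0.85, 0.83, 0.49 and 0.35. On the other side PLAU, urokinase, fell from 80.9, 85.6 and 87.0 to 37.4, 26.9 and 43.3 (log2 change -1.24, adjusted p = 3.0e-05), and PLAUR, its receptor, fell by 0.44, MMP7 by 0.63 and MMP13 by 0.49.

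Distal regions of the TGF-beta pathway were 43 higher (29.5%) and 6 lower (4.11%) of 146, against 19.5% and 10.6% of all distal regions. Over the alternatives 31 to 70 were higher and 2 to 19 lower. LTBP2, a latent TGF-beta binding protein gene, had 8 of 12 distal regions higher and none lower. SMAD7, the feedback inhibitor of the receptors, had 6 of 16 higher, TGFB2, a ligand, 4 of 6, and PMEPA1, another feedback inhibitor, 5 of 13, with 1 lower. Of 18 promoters of the pathway 1 was higher and 3 lower. BAMBI, a decoy receptor, fell (log2 change -0.74, adjusted p = 0.000406), as did TGFBR1 (-0.26) and INHBA (-0.40), and with the GC trend removed no promoter of the list was called lower. None of the 196 regions with the SMAD palindrome lay among these 146 regions. The palindrome occurred in only 0.271% of all distal regions, so a set of this size would hold few or none.

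Receptors and ligands that can bypass EGFR had 42 higher and 13 lower of 150 distal regions (28.0% and 8.67%, against 19.5% and 10.6% of all distal regions). Over the alternatives 30 to 56 were higher and 8 to 20 lower. Counts of single genes below should be read against the same shares of all distal regions. For IGF1R, the insulin-like growth factor receptor, the promoter region lay over a start site inside the gene (chr15:99433224-99433772). It need not stand for other start sites of the gene. Its signal rose from 96.7, 79.6 and 90.3 to 181, 145 and 167 (log2 change 0.88, SE 0.151, adjusted p = 1.2e-05). Of the 34 distal regions of IGF1R 9 were higher and 1 lower. FGFR2 had 7 of 13 distal regions higher and GAS6, the ligand of AXL, 5 of 9. Promoter regions of FGFR2 and AXL had log2 changes of -0.42 and -0.37 (adjusted p = 0.0243 and 0.0351). These calls were lost under 5 and 9 of the 21 alternatives, with adjusted p-values of up to 0.735 and 0.609. The AXL region lay inside the gene, 0.322 kb from a start site (chr19:41731614-41732338). It need not stand for other start sites of AXL. The AXL call was lost without any 1 library other than PBS replicate 1.

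EGFR itself, the target of the antibody, had a promoter signal of 205, 186 and 205 with cetuximab against 144, 140 and 162 (log2 change 0.42, SE 0.125, adjusted p = 0.00982). This call was lost with median centring (adjusted p = 0.166), with DESeq2 (0.0907) and with all libraries in 1 fit (0.0624). Of its 29 distal regions 9 were higher and 4 lower. At NRG1, the ligand of ERBB3, 5 of 21 distal regions were higher and none lower, and both distal regions of HBEGF were lower. The promoters of EREG and BTC, ligands of EGFR, fell by 0.59 and 0.49, and neither was called with the GC trend removed or with scaling by regions that had no peak.

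Genes that report ERK activity had 5 lower and no higher promoters of 19 (background 10.9% and 3.77%), and 19 higher and 22 lower of 120 distal regions (18.3% lower, against 10.6%). EGR1, an immediate early factor, had 171, 180 and 189 with cetuximab against 249, 219 and 245 (log2 change -0.40, SE 0.114, adjusted p = 0.00723). FOSL1, the FRA1 subunit of AP-1, fell by 0.59, the phosphatase gene DUSP4 by 0.69 and the ephrin receptor gene EPHA4 by 0.65. With the GC trend removed no promoter of the list was called lower, and 2 were without cetuximab replicate 1 and 3 without PBS replicate 3. Among the AP-1 factors BATF3 fell from 77.3, 53.5 and 39.2 to 20.2, 25.1 and 27.8 (log2 change -1.14, adjusted p = 0.0011) and kept its call under every alternative. At DUSP5, an ERK phosphatase gene, 6 of 16 distal regions were lower and 2 higher.

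Genes of replication and mitosis had 11 lower and no higher promoters of 36, among them CDK1 (log2 change -0.51), GINS2 of the replicative helicase (-0.70), RRM2 of ribonucleotide reductase (-0.45) and MKI67 (-0.42). The share of lower promoters was above the 10.9% of all promoters, but with the GC trend removed none was called lower and 1 was higher. The count of 11 was 3 with all libraries in 1 fit, 4 without cetuximab replicate 1 or 2, and 5 without any 1 of the other 4 libraries. CDK1 had 193, 176 and 148 against 269, 211 and 256.

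Mesenchymal genes had 34 higher and 18 lower of 119 distal regions (28.6% and 15.1%, against 19.5% and 10.6%), and the lower count was 11 without PBS replicate 3. FN1, fibronectin, rose at its promoter from 74.9, 73.6 and 88.1 to 135, 200 and 165 (log2 change 1.06, SE 0.160, adjusted p = 1.0e-06), and COL5A1 rose by 0.49, with 7 of 10 distal regions higher and none lower. TNC, tenascin C, had 9 of 17 distal regions higher and 1 lower, although its promoter fell by 0.36. ZEB1, a repressor of epithelial genes, fell by 0.48 at its promoter, a call that was lost under 9 of 21 alternatives. Epithelial junction genes had 6 lower and 1 higher promoters of 22 (background 10.9% and 3.77%), and 17 higher and 21 lower of 117 distal regions (14.5% and 17.9%, against 19.5% and 10.6%). The 6 lower promoters were 2 with the GC trend removed, 2 without PBS replicate 3 and 3 without cetuximab replicate 2, and the 21 lower distal regions were 12 without PBS replicate 3. CLDN7, a claudin, fell from 90.6, 89.7 and 87.0 to 40.4, 48.3 and 66.5 (log2 change -0.80, adjusted p = 0.00262) and kept its call under every alternative, whereas the fall of CDH1, E-cadherin (-0.60, adjusted p = 0.0282), was lost under 6 of 21.

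Squamous lineage genes split among the keratins. KRT15, a keratin of basal cells, fell from 209, 168 and 224 to 108, 87.3 and 126 (log2 change -0.90, SE 0.145, adjusted p = 3.4e-06). KRT5, KRT16 and KRT17 rose by 0.93, 0.93 and 0.78, with adjusted p-values of 0.0125, 0.00861 and 0.00415, each lost without at least 1 library (up to 0.0686, 0.0586 and 0.0582). The keratin genes have close paralogs and pseudogenes, where reads can be placed wrongly. TGM1, the transglutaminase of the cornified envelope, rose from 19.3, 22.1 and 35.9 to 69.7, 56.6 and 55.2 (log2 change 1.24, adjusted p = 0.000277), and no PBS library had a peak at it. The small proline-rich genes SPRR1A and SPRR1B fell by 0.99 and 0.61, and these calls were lost under 6 and 10 of the alternatives.

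Among inflammatory genes LIF, a cytokine of the IL6 family, rose from 9.67, 16.7 and 12 to 28.3, 48.3 and 53.9 (log2 change 1.67, SE 0.324, adjusted p = 7.6e-05), while RELB, an NF-kB subunit, fell from 164, 213 and 184 to 103, 97.5 and 119 (log2 change -0.80, SE 0.142, adjusted p = 1.6e-05). Genes of antigen presentation had 8 lower and 2 higher of 15 distal regions, with a median log2 change of -1.0. These are 53.3% and 13.3%, against 10.6% and 19.5% of all distal regions, and most of the lower ones lay at 1 gene. Of the lower ones 6 were nearest to NLRC5, the activator of MHC class I genes, and 2 to CIITA, that of class II, and these genes were named after their values were seen. The promoters of both were not called (log2 changes of -0.13 and -0.59, adjusted p = 0.747 and 0.201).

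YAP and TEAD with their targets had 66 higher and 37 lower of 280 distal regions (23.6% and 13.2%, near the 19.5% and 10.6% of all distal regions) and 3 higher and 8 lower promoters of 25 (background 3.77% and 10.9%). The lower promoters were 4 without cetuximab replicate 2 and 5 without PBS replicate 2. TEAD4 and TEAD2 fell by 0.56 and 0.52 at their promoters, and GADD45A by 0.39, but with the GC trend removed their adjusted p-values were 0.213, 0.131 and 0.53. The TFAP2 factors, which the study followed, had 7 lower and 3 higher of 25 distal regions (28% and 12%, against 10.6% and 19.5%), with a median of -0.42. The 7 lower were 2 with all libraries in 1 fit or with scaling by regions that had no peak, and 4 without cetuximab replicate 2. Promoters of TFAP2A and TFAP2C fell by 0.20 and 0.34, and neither call held with the GC trend removed, where TFAP2A had a log2 change of 0.038.

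Among the remaining lists, ribosomal protein genes had 4 lower and no higher promoters of 70, and zinc finger genes of chromosome 19 had 15 lower and 1 higher of 205 (background 10.9% and 3.77%). Both counts depended on the scaling: with median centring 14 ribosomal and 63 zinc finger promoters were lower, and with the GC trend removed none were lower and 10 and 21 were higher. The zinc finger count of 15 was 4 without cetuximab replicate 2, 6 without PBS replicate 2, 8 without cetuximab replicate 1 or PBS replicate 3, and 9 without PBS replicate 1, and the ribosomal count of 4 was 2 without cetuximab replicate 1 or PBS replicate 2. Interferon-stimulated genes had 1 lower and no higher of 25 promoters, and the BCL2 family none called of 12. With median centring 5 and 4 of these were lower.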

How the data were processed

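The 6 SCC6 libraries of ATAC-seq were analysed, with those of SCC1 and SCC25 for comparison. SCC1 PBS replicate 2 was not analysed here. The authors trimmed reads (Trim Galore 0.5.0), aligned them to hg19 (Bowtie2 2.3.2), removed duplicates and mitochondrial reads (Picard 2.18, SAMtools 1.9), called broad peaks per library with MACS2 and merged them with DiffBind. The MACS2 version and all cutoffs are not given in the sources used here. The deposited signal per region is a whole number of reads (a 0 became 1) multiplied by a single step for each library (100% whole within 0.001). The deposited peak files also give fold enrichment as a ratio and −log10 p-values and q-values, and were used only for whether a region had a peak. No column of another series was present.

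The 25% of regions with the lowest mean were left out, and log2(signal + 1) was fitted with limma 3.58.1 (R 4.3.3, trend and robust, two-sided, Benjamini-Hochberg). Joint fits gave the values of the other lines. Alternatives numbered 21, including edgeR 4.0.16 and DESeq2 1.42.0 on recovered reads. The fit was tested on simulated data. Genes are from GENCODE 44 lifted to hg19. Named regions are the 8 of smallest adjusted p per direction and class without overlap of groups, the 6 genes and 5 windows of 1 Mb with the most calls per direction, and up to 4 called promoters per list. Others are named after their values were seen, and a few items that these rules name are not reported here. The regions, lists and motifs were chosen with earlier results of these data known.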

Additional observations from a re-analysis of the deposited data

Results flagged for a closer look

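Of the 31 regions reported for their smallest adjusted p, 23 had an SCC6 response that differed from the mean of the SCC1 and SCC25 responses in the joint limma fit, all 23 further from 0 in SCC6. The values below are these differences on the log2 scale. Because the regions were chosen for their SCC6 change, they describe these regions and are not independent evidence of a difference.

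Promoters called higher with cetuximab differed by 1.82 at HHAT, 1.32 at STON1, 3.29 at ZNF23, 1.62 at NPLOC4, 3.04 at TP73 and 1.09 at NEK6. At TP73 the change in SCC1 was -0.58 and in SCC25 0.14. Promoters called lower differed by -1.83 at NLRP10, -1.16 at TRIM8, -1.7 at GPR160 and -2.36 at VILL. GPR160 had a log2 change of 1.11 in SCC1, which did not pass the threshold (adjusted p = 0.0518).

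Distal regions called higher differed by 2.3 near TRPC6, 1.69 near MMP13, 1.6 near LRATD2, 3.05 near ARHGAP42, 2.35 near MMP27 and 3.06 near DNAH5. The MMP13 region also rose in SCC1 (log2 change 2.31, adjusted p = 0.000224). Distal regions called lower differed by -1.49 near TMEM106B, -2.43 near TNFRSF11B, -0.75 near CEP126, -1.54 near GNA14, -2.08 near EDN2, -2.14 near DOCK10 and -1.96 near SCEL. The LRATD2 and TNFRSF11B regions lay 182 and 114 kb from those start sites.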

How the results depend on the processing

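All 31 regions reported for their smallest adjusted p kept their direction and call under all 21 alternatives, and counts moved by more than 1.5 times as follows. Regions higher (14622) were 9287 with DESeq2 and 26392 with libraries scaled by reads outside peaks, and distal regions higher (14091) were 8990 and 24517. Regions lower (9152) were 5858 with all libraries in 1 fit, 15782 with median centring and 5260 with that scaling, and distal regions lower (7621) were 11709 and 4916 with the last 2. Promoter regions higher (531) were 297 with DESeq2, 1747 with the GC trend removed, 347 in 1 fit, 331 with median centring, 1875 with that scaling and 1099 within 3 kb. Promoter regions lower (1531) were 315 with the GC trend removed, 645 in 1 fit, 4073 with median centring and 344 with that scaling, and 943 to 1594 with 1 library left out (1005 without cetuximab replicate 2, 943 without PBS replicate 3). A response below the other lines (2961) was called in 1878 regions with the GC trend removed, 8256 with median centring, 9269 with quantile normalization, and 1716 to 2357 with 1 library left out (1716 and 1938 when cetuximab replicate 1 or 2 was left out, and 1943 when PBS replicate 3 was). The log2 change turned at the promoters of TFAP2A (0.038 with the GC trend removed, 0.03 with that scaling), YAP1 (0.058, 0.029, and 0.019 with cyclic loess), ESRP1 (0.015), TGFBR1 (0.079), PKP2 (0.034) and BIRC2 (0.013), the last 4 with the GC trend removed. The cause was not tested. Replicate numbers did not pair the samples (correlations of deviations 0.0383, -0.0164 and 0.00579), and the replicate block gave 15380 higher and 9388 lower. The edgeR fit without a filter was chosen after seeing the data. The smallest library held 4098164 reads, and simulated log2 changes of 1 and 2 were recovered in 38.5% and 90.5% of cases. Of those simulated calls 6.1% and 6.22% were false. In the test of SCC6 against SCC1 and SCC25 the changes were recovered in 3.5% and 74.5%. The simulation changed 200 of 86315 regions, far fewer than were called in the data. The adjusted threshold is stricter when fewer regions change, so these shares do not give the recovery in the data. A region without a called difference between lines is not shown to respond alike.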

Other observations

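Of the 196 distal regions with the SMAD palindrome, 46 also held an AP-1 match, and 29 of these were higher with cetuximab. A peak in all 3 cetuximab libraries and in none of the PBS libraries was called at 40 of the 196 (20.4%), against 5.72% of all distal regions. The palindrome was noticed in these data and has no independent test here.

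Distal regions with exactly 2 AP-1 matches 10 bases apart (53 regions) were lower in 35.8% of cases, and those with 2 matches at other spacings (3037 regions) in 23.4%. The median log2 changes were -0.44 and -0.23 in SCC6, -0.74 and -0.47 in SCC1, and -0.29 and -0.23 in SCC25.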
